A study of Mus musculus with 6 samples.

Results

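Messages for the subunits of the mitochondrial respiratory chain were followed by complex and by the genome that encodes them. Genes were taken from the count table by symbol: names beginning Nduf, Uqcr or Atp5, the numbered Cox subunits, Sdha to Sdhd, Cyc1, Cycs and the mitochondrially encoded mt-Nd, mt-Co, mt-Atp and mt-Cyt genes, without names that carry -ps. This gave 102 of 23399 genes, of which 95 are nuclear and 7 are mitochondrially encoded. The 95 are 78 nuclear subunits, 8 complex I assembly factors of the Ndufaf family, cytochrome c (Cycs), the supercomplex factor Cox7a2l, 3 tissue isoforms of complex IV and 4 copy genes (Ndufa11b, Ndufb4c, Ndufs6b and Cox6c2). After the filter on low counts 96 of the 102 were tested. The 6 that were not, the 4 copy genes with Cox6a2 and Cox6b2, had at most 0.546 CPM in any library (CPM is a gene's count scaled to the size of the library).

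The poly(A) RNA of CMT93 spheroids was sequenced in 3 libraries with palmitate and 3 with vehicle; CMT93 is an established mouse colorectal cancer line, labelled wild type. In the palmitate group the medium held 200 µM sodium palmitate, a saturated fatty acid, carried on bovine serum albumin from an ethanol stock. The vehicle group received ethanol and albumin alone. All cells were kept in their medium for 1 week as a monolayer and then for 5 days as spheroids over soft agar with Matrigel. Whether the libraries of a group are separate cultures is not in the labels; the p-values cover the variation among these libraries alone, which could be technical.

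The respiratory chain passes electrons from NADH through complex I, or from succinate through complex II, to coenzyme Q, then through complex III and cytochrome c to complex IV, where oxygen is reduced. Complexes I, III and IV pump protons across the inner membrane, and complex V, the ATP synthase, uses their return to make ATP. Complex II is made entirely from nuclear genes, whereas the other complexes join nuclear subunits to a core that mitochondrial DNA encodes in part. Electrons from beta-oxidation of fatty acids such as palmitate enter the same chain, as NADH at complex I and through the electron transfer flavoprotein at coenzyme Q.

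Library totals were 18.9 to 21.9 M counts in the vehicle group and 22.5 to 22.9 M in the palmitate group, ranges that do not overlap. Values below are CPM normalised by the trimmed mean of M values, and a gene is called when its Benjamini-Hochberg adjusted p in edgeR's quasi-likelihood test is under 0.05. All 8 colon epithelium markers in the table were at 1 CPM or more in these libraries, with summed levels of 7413 to 7488 CPM with vehicle and 6797 to 6895 CPM with palmitate. Of the other cell type markers, Cd68 of the leukocyte list, Cdh5 of endothelium and Col1a1 of fibroblasts reached 1 CPM, while the 1 muscle marker in the table was at most 0.0895 CPM. The summed leukocyte markers were 7.19 to 8.95 CPM with vehicle and 9.45 to 10.6 CPM with palmitate. Those of endothelium were 3.23 to 3.55 and 2.00 to 2.55 CPM, and those of fibroblasts 1.339 to 2.047 and 0.976 to 1.10 CPM. None of these ranges overlapped between groups, and their part in the results was not tested. In bulk RNA a change in the number of cells of a type and a change in RNA per cell cannot be told apart.

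Nuclear subunit messages were mostly a little higher with palmitate. Of all 96 tested genes of the set 53 were called higher and 6 lower, where 52.8% of tested genes were called in either direction. Of 78 nuclear subunits, 44 rose, 4 fell and 30 were not called, while over all 14987 tested genes 27.4% were called higher and 25.4% lower. Among nuclear subunits the median log2 fold change was 0.08, against 0.00 for all tested genes. The 3 palmitate libraries lay above the 3 vehicle libraries for 45 of the 78 and below them for 4, where 29.7% and 28.1% of tested genes did so. Small differences are called more readily in abundant genes. Among the 6969 genes of at least 30 CPM, 37.8% were called higher and 25% lower, and of the 71 nuclear subunits at that level 43 rose and 3 fell. The median log2 fold change of these 71 was 0.09, against 0.03 for all genes at that level. The changes were small: 7 nuclear subunits were called with at least a 1.2-fold rise and 0 with a fall of that size, against 10.7% and 14.4% of tested genes. The 44 rises became 29 with DESeq2, another count model, which called 3090 of all 14987 genes higher.

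By complex, 17 of 37 nuclear complex I subunits rose and 2 fell, with a median log2 fold change of 0.09. In complex II 3 of 4 rose and 1 fell. In complex III 7 of 9 nuclear subunits rose and 0 fell, with a median of 0.08, and in complex V 13 of 17 rose and 0 fell, with a median of 0.09. Complex IV had the lowest share of rises, 4 of 11 nuclear subunits (36.4%), with 1 fall and a median of 0.05. That share is near the 37.8% called higher among genes of at least 30 CPM, whose median was 0.03. Whether complex IV differs from the other complexes was not tested. Of the 7 mitochondrially encoded genes 4 were called higher and 1 lower, with a median of 0.04. Over all tested genes 27.4% were called higher and 25.4% lower.

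**Figure D1:**
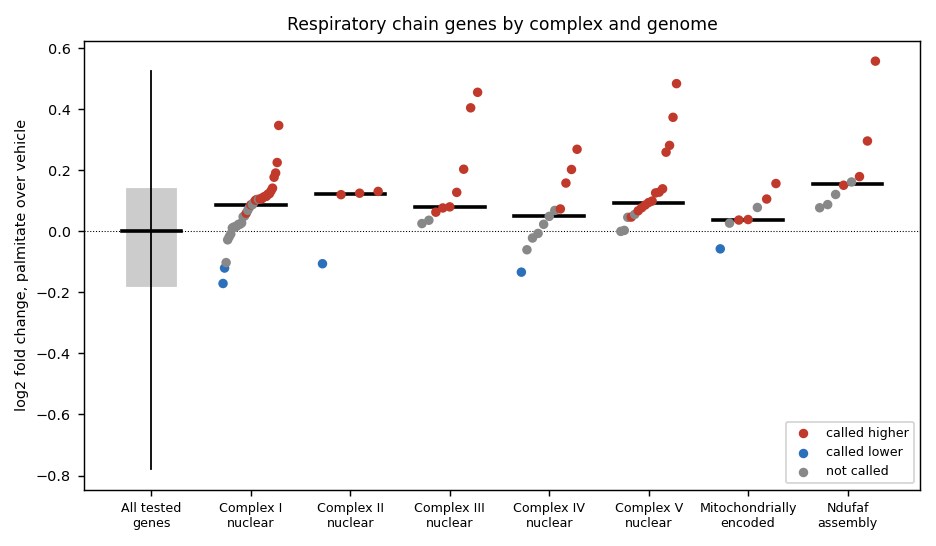
Log2 fold change, palmitate over vehicle, of each tested subunit gene, grouped by complex and genome, with the Ndufaf factors at the right; each point is 1 gene, coloured by its call, and black bars are group medians. For all tested genes the grey box spans the quartiles and the line the 5th to 95th percentiles; the nuclear groups have medians between 0.05 and 0.16, above the median of 0.00 for all genes.

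Complex I, the NADH dehydrogenase, has a peripheral arm, with an N module that oxidises NADH and a Q module that reduces coenzyme Q, and a membrane arm that pumps protons. In the Q module 4 of 6 nuclear subunits rose and in the N module 3 of 10, with no falls in either; the share of the N module, 30%, is near the 27.4% of all tested genes. The proximal part of the membrane arm had 4 rises and 1 fall among 9 nuclear subunits, and the distal part 6 rises and 1 fall among 12. The 7 nuclear core subunits, which carry the redox centres, had 4 rises, and the 30 supernumerary subunits 13 rises and 2 falls. The 17 rises of complex I became 10 with DESeq2 and 11 without palmitate replicate 1.

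Ndufs3, a core subunit of the Q module, had the largest rise of complex I. Its level was 38.7, 39.1 and 38.7 CPM with vehicle and 48.4, 51.0 and 48.8 CPM with palmitate. The groups did not overlap and stood far apart relative to their spread, with a log2 fold change of 0.35 ± 0.04 (SE, n = 3 per group; edgeR adjusted p = 3.30e-12). Of the 50-base stretches in its longest protein-coding transcript, 39.7% also occur in transcripts of other genes. Some of its reads may thus not be assigned to it alone. Its RefSeq promoter window is shown because it belongs to the complex I gene that rose most; capitals mark the ETS motif of the GABP factor (CCGGAAG or its reverse complement), which it holds 2 times. The window runs 5′ to 3′ along the gene, on the minus strand of GRCm38.p6 at chr2:90904672-90904971, from 250 bases before to 50 bases after the annotated start.
Ndufs3: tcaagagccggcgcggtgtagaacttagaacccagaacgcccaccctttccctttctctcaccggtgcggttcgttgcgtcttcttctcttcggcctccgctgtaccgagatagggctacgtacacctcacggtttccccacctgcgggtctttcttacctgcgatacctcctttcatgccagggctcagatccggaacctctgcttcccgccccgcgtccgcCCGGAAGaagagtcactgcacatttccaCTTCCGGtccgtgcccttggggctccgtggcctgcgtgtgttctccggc

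Ndufv2 and Ndufv1, core subunits of the N module, both rose. Ndufv2 was 107, 108 and 109 CPM with vehicle and 125, 123 and 123 CPM with palmitate, with a log2 fold change of 0.19 (edgeR adjusted p = 7.69e-10). Ndufv1, which binds NADH and the flavin, was 153, 150 and 148 CPM with vehicle and 164, 159 and 161 CPM with palmitate, with a log2 fold change of 0.10. Neither gene's groups overlapped. Ndufs1, the large iron-sulfur subunit of the same module, was 107 to 110 CPM with vehicle and 109 to 112 CPM with palmitate, groups that overlapped, and was not called. In the Q module Ndufs7 (log2 fold change 0.03) and Ndufs8 (0.05), which hold iron-sulfur clusters next to coenzyme Q, overlapped between groups and were not called.

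Among the supernumerary subunits Ndufb7, a distal membrane arm subunit, was 78.2, 77.2 and 75.4 CPM with vehicle and 90.6, 89.4 and 89.7 CPM with palmitate. Its log2 fold change was 0.23 ± 0.03 (SE, n = 3 per group; edgeR adjusted p = 5.13e-10), with each palmitate library above each vehicle library. Ndufa13, also known as GRIM-19, was 102, 106 and 103 CPM with vehicle and 116, 117 and 118 CPM with palmitate, a log2 fold change of 0.18. Both stood clear of the vehicle libraries. Ndufb5 went the other way: 62.0, 65.9 and 62.9 CPM with vehicle and 56.6, 55.2 and 57.8 CPM with palmitate, a log2 fold change of -0.17 ± 0.04 (SE, n = 3 per group; edgeR adjusted p = 2.28e-05). This distal arm subunit had the largest fall of the nuclear subunits. Ndufc1 was 28.02, 29.21 and 28.06 CPM with vehicle and 27.4, 26.4 and 24.8 CPM with palmitate, a log2 fold change of -0.12 (edgeR adjusted p = 0.0362). The groups did not overlap, but the call was lost with DESeq2, without the count filter, and without vehicle replicate 2 (-0.10), palmitate replicate 2 (-0.12) or palmitate replicate 3 (-0.08).

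**Figure D2:**
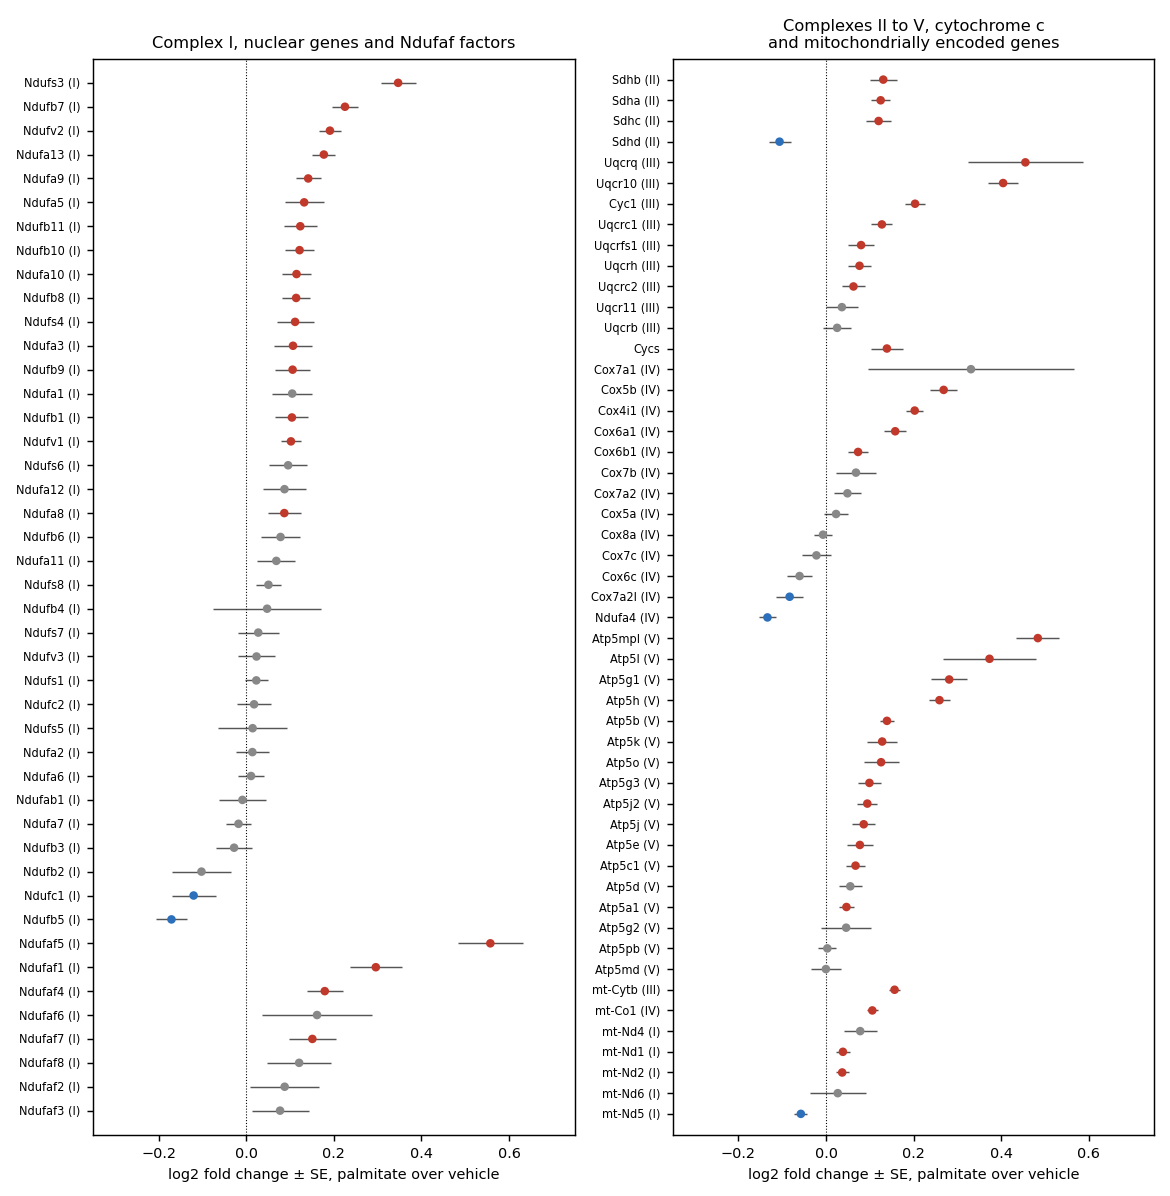
Log2 fold change ± SE, palmitate over vehicle (horizontal axis), of the tested genes except 1 that is not reported here, each with its complex in brackets; red points were called higher, blue points lower and grey points were not called. Rises and falls occur within complexes I, II and IV, while complexes III and V have no nuclear subunit called lower.

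Complex II, succinate dehydrogenase, links the citric acid cycle to the chain. Its 4 subunits split: Sdha, Sdhb and Sdhc rose by almost the same amount, and Sdhd fell. Sdha, the flavin subunit that oxidises succinate, was 211, 220 and 208 CPM with vehicle and 237, 230 and 230 CPM with palmitate. Sdhb, the iron-sulfur subunit, was 75.9, 76.1 and 75.7 CPM with vehicle and 83.1, 84.3 and 82.0 CPM with palmitate. Sdhc, one of the membrane anchors, was 89.8, 90.2 and 90.0 CPM with vehicle and 100.2, 98.3 and 95.0 CPM with palmitate. In all of these the groups were separate, and the log2 fold changes were 0.12 for Sdha, 0.13 for Sdhb and 0.12 for Sdhc, with SEs of 0.02 to 0.03.

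Sdhd, the other membrane anchor, was 136, 135 and 137 CPM with vehicle and 131, 123 and 124 CPM with palmitate. Every palmitate library was below every vehicle library, at a log2 fold change of -0.11 ± 0.03 (SE, n = 3 per group; edgeR adjusted p = 0.000204). The direction and the call of all 4 genes held under each of the 12 alternatives. The promoter windows of Sdha, Sdhb and Sdhd are shown because these genes of a single complex moved in opposite directions; Sdhc had no entry in the RefSeq table. Capitals mark matches to the motif of the factor NRF1, the ETS motif (CCGGAAG) and the ERR motif (AAGGTCA), on either strand. Sdha (chr13:74350191-74350490, minus strand) holds 3 NRF1 matches, Sdhb (chr4:140961021-140961320, plus strand) an ETS match, and Sdhd (chr9:50603800-50604099, minus strand) one match of each kind, so NRF1 and ETS matches occur both in genes that rose and in the gene that fell.
Sdha: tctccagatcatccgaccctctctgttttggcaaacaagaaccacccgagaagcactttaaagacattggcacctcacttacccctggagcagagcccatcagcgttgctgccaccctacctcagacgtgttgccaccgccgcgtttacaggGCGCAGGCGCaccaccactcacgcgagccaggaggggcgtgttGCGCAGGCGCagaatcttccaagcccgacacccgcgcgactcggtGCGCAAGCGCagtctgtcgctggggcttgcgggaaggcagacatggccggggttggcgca
Sdhb: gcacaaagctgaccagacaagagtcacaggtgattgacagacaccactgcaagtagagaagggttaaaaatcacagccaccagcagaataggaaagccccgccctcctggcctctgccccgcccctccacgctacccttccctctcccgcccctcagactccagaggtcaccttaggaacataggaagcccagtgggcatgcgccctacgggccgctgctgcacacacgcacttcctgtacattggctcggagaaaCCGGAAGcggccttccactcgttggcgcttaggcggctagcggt
Sdhd: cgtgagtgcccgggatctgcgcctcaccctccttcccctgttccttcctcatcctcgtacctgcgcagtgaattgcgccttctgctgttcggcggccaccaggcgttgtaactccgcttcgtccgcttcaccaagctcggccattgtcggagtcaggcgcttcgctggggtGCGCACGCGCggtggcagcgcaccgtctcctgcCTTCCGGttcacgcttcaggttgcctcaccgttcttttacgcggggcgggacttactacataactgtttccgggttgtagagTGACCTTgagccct

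Complex III, the cytochrome bc1 complex, carries electrons from coenzyme Q to cytochrome c. Cyc1, its cytochrome c1, was 134, 135 and 138 CPM with vehicle and 159, 153 and 155 CPM with palmitate. The groups did not overlap and the log2 fold change was 0.20 ± 0.02 (SE, n = 3 per group; edgeR adjusted p = 4.39e-12). The Rieske iron-sulfur protein Uqcrfs1 was called higher at 0.08, a call lost with DESeq2 and without vehicle replicate 2 (0.07), vehicle replicate 3 (0.07) or palmitate replicate 2 (0.07). The core protein Uqcrc1 was called higher at 0.13, under every alternative. Uqcr10, a small supernumerary subunit, was 55.7, 54.1 and 53.5 CPM with vehicle and 69.6, 73.5 and 73.0 CPM with palmitate, a log2 fold change of 0.40 ± 0.03 (SE, n = 3 per group; edgeR adjusted p = 6.29e-18). This was the smallest adjusted p of any nuclear subunit. Uqcrb and Uqcr11 overlapped between groups and were not called. The 7 rises became 4 with DESeq2 and 4 without vehicle replicate 2.

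Uqcrq, another small subunit of complex III, had a vehicle library that stood apart. It was 85.5, 62.3 and 85.3 CPM with vehicle and 105, 107 and 106 CPM with palmitate. Vehicle replicate 2 was the low one, and the groups still did not overlap. The log2 fold change of 0.46 ± 0.13 (SE, n = 3 per group; edgeR adjusted p = 0.0444) became 0.31 without vehicle replicate 2, with an adjusted p of 1.60e-13. The call was lost when any other library was left out: without vehicle replicate 1 the log2 fold change was 0.52, without vehicle replicate 3 it was 0.53, and without palmitate replicates 1, 2 and 3 it was 0.47, 0.45 and 0.46. It was also lost without the count filter (adjusted p = 0.0743) and with the replicate number as a block (adjusted p = 0.159). Cycs, the mobile carrier to complex IV, was 53.0, 53.7 and 54.7 CPM with vehicle and 58.5, 62.1 and 57.3 CPM with palmitate. It rose, with separate groups and a log2 fold change of 0.14 (edgeR adjusted p = 0.000782).

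Complex IV, cytochrome c oxidase, had both clear rises and a clear fall among its nuclear subunits. Cox4i1, which is the regulatory subunit that binds ATP, was 258, 267 and 256 CPM with vehicle and 298, 302 and 299 CPM with palmitate. Its log2 fold change was 0.20 ± 0.02 (SE, n = 3 per group; edgeR adjusted p = 1.16e-15) and its groups were far apart. Cox5b was 76.4, 74.5 and 77.3 CPM with vehicle and 89.9, 90.7 and 94.2 CPM with palmitate, a log2 fold change of 0.27. Cox6a1 (0.16) and Cox6b1 (0.07) were also called higher. Of the others, Cox5a, Cox6c, Cox7b, Cox7c and Cox8a overlapped between groups and were not called. Without palmitate replicate 1, however, Cox6c was called lower (-0.10) and Cox7b higher (0.13), and Cox6c was also called without vehicle replicate 1 (-0.08) and, barely, with the replicate block (-0.06, adjusted p = 0.0497). Cox7b was also called without the count filter (0.08). Cox8a was among the steadiest of these messages, at 234, 235 and 235 CPM with vehicle and 231, 234 and 235 CPM with palmitate.

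Ndufa4, named for complex I but now placed in complex IV, was 258, 260 and 258 CPM with vehicle and 237, 237 and 234 CPM with palmitate. All palmitate libraries were below all vehicle libraries, at a log2 fold change of -0.13 ± 0.02 (SE, n = 3 per group; edgeR adjusted p = 8.26e-09). Cox7a2l, which helps join complex III to complex IV in supercomplexes, was 76.6, 80.4 and 78.0 CPM with vehicle and 74.5, 73.7 and 73.8 CPM with palmitate. It was called lower at a log2 fold change of -0.08 (edgeR adjusted p = 0.0206), a call lost with DESeq2, without the count filter, and without vehicle replicate 2 (-0.06), palmitate replicate 2 (-0.08) or palmitate replicate 3 (-0.08). Its relative Cox7a2, a subunit of the enzyme itself, was at 73.0 to 75.01 CPM with vehicle and 75.1 to 77.9 CPM with palmitate and was not called. The muscle and heart isoform Cox7a1 was near 1 CPM in every library and was not called. The muscle isoform Cox6a2 and the testis isoform Cox6b2 were among the untested genes.

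**Figure D3:**
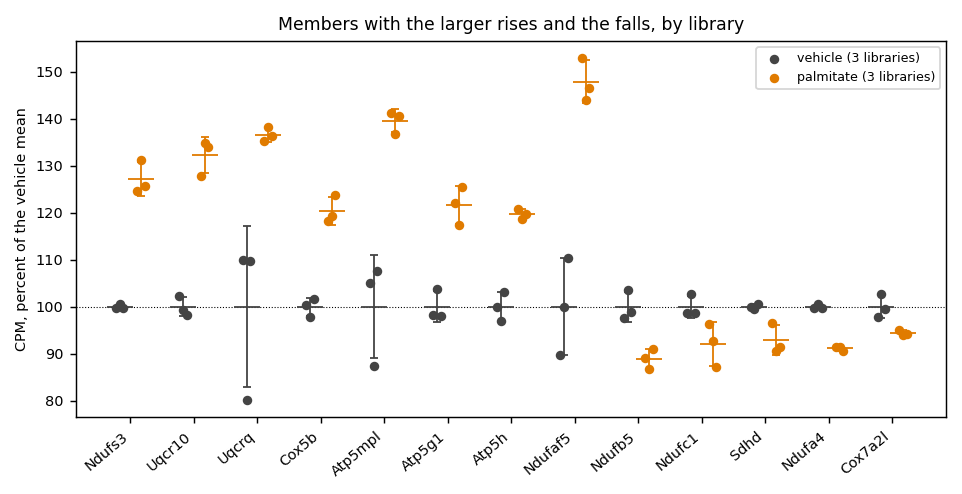
Level of 13 genes in each library, as percent of the gene's vehicle mean (vertical axis); points are libraries, and bars are the mean ± SD of 3. The first 8 genes were called higher and the last 5 lower, and the low vehicle points of Uqcrq and Atp5mpl are both vehicle replicate 2.

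In complex V, the ATP synthase, a rotor and a catalytic head called F1 are joined to a proton channel in the membrane. In F1 4 of 5 subunits rose, in the proton-driven c-ring 2 of 3, in the peripheral stalk 3 of 4, and among the membrane supernumerary subunits 4 of 5. Atp5b, the catalytic beta subunit and the most abundant nuclear message of the set in CPM, was 942, 971 and 953 CPM with vehicle and 1050, 1050 and 1055 CPM with palmitate. Its log2 fold change was 0.14 ± 0.02 (SE, n = 3 per group; edgeR adjusted p = 3.36e-13), with no overlap. The alpha subunit Atp5a1 rose less, from 594, 592 and 587 CPM with vehicle to 620, 610 and 602 CPM with palmitate, a log2 fold change of 0.05 (edgeR adjusted p = 0.0121). That call was lost with DESeq2 and without vehicle replicate 3 (0.04) or palmitate replicate 1 (0.04). The 13 rises of complex V became 8 with DESeq2.

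The c-ring protein is encoded by 3 genes whose mature product is the same. Atp5g1 was 38.9, 41.1 and 38.8 CPM with vehicle and 48.3, 46.5 and 49.7 CPM with palmitate, a log2 fold change of 0.28 ± 0.04 (SE, n = 3 per group; edgeR adjusted p = 5.82e-09). Atp5g3, at 159, 154 and 155 CPM with vehicle and 160, 177 and 164 CPM with palmitate, rose by a log2 fold change of 0.10, which was 0.06 and not called without palmitate replicate 2. Both had separate groups, though those of Atp5g3 nearly touched. Atp5g2 was 45.2, 38.1 and 35.8 CPM with vehicle and 40.9, 40.3 and 41.1 CPM with palmitate, overlapping and not called. It was called higher, at 0.14, without vehicle replicate 1, its highest vehicle library, and was -0.02 and not called without vehicle replicate 3.

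In the stalk that holds F1 still, Atp5h was 124, 121 and 128 CPM with vehicle and 150, 147 and 149 CPM with palmitate, a log2 fold change of 0.26 ± 0.02 (SE, n = 3 per group; edgeR adjusted p = 8.52e-16). Atp5pb, the b subunit beside it, was 252 to 260 CPM with vehicle and 253 to 266 CPM with palmitate and was not called. The calls of these stalk genes thus differed. Of the 50-base stretches of Atp5h 47.9%, and of those of Atp5pb 38.7%, also occur in transcripts of other genes, so both levels are less certain. The largest log2 fold change of the nuclear subunits was that of Atp5mpl, which encodes a small membrane protein of the complex: 45.8, 38.2 and 46.9 CPM with vehicle and 61.6, 59.6 and 61.3 CPM with palmitate, or 0.48 ± 0.05 (SE, n = 3 per group; edgeR adjusted p = 3.62e-09). Vehicle replicate 2 was again the lowest, and without it the log2 fold change was 0.39 and still called. Atp5l was also called higher at 0.37, from only 4.58 to 5.40 CPM with vehicle and 6.43 to 6.92 CPM with palmitate, and 84.8% of its 50-base stretches are shared with other genes.

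The mitochondrially encoded messages in the table did not move together; other subunit genes of mitochondrial DNA (mt-Nd3, mt-Nd4l, mt-Co2, mt-Co3 and the mt-Atp genes) were not analysed here. All come from polycistronic transcripts of mitochondrial DNA, and all but mt-Nd6 from the same strand. mt-Cytb, the cytochrome b of complex III, was 4904, 4951 and 5006 CPM with vehicle and 5509, 5491 and 5564 CPM with palmitate. The groups were far apart, and the log2 fold change was 0.16 ± 0.01 (SE, n = 3 per group; edgeR adjusted p = 5.07e-18). mt-Co1, the catalytic subunit of complex IV, was 7698, 7767 and 7817 CPM with vehicle and 8451, 8271 and 8331 CPM with palmitate, a log2 fold change of 0.11 (edgeR adjusted p = 4.48e-11). Of its 50-base stretches 51.1% also occur in transcripts of other genes.

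The 5 mitochondrially encoded complex I genes in the table, all of the proton-pumping membrane arm, differed less between groups. mt-Nd5 fell, from 3126, 3118 and 3195 CPM with vehicle to 3111, 2953 and 3007 CPM with palmitate, groups that nearly touched, at a log2 fold change of -0.06 ± 0.01 (SE, n = 3 per group; edgeR adjusted p = 0.0006). mt-Nd1 was 3016, 3081 and 3086 CPM with vehicle and 3204, 3033 and 3194 CPM with palmitate, and mt-Nd2 was 2062, 2039 and 2129 CPM with vehicle and 2167, 2094 and 2130 CPM with palmitate. Both were called higher at a log2 fold change of 0.04, although their groups overlapped. The call of mt-Nd1 was lost with DESeq2 and without vehicle replicate 1, palmitate replicate 1 or palmitate replicate 3 (0.03 in each). The call of mt-Nd2 was lost with DESeq2, with median-of-ratios size factors, and without vehicle replicate 1 (0.03), vehicle replicate 2 (0.02), palmitate replicate 1 (0.03) or palmitate replicate 3 (0.04).

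mt-Nd4 was 1788, 1643 and 1789 CPM with vehicle and 1835, 1813 and 1860 CPM with palmitate, with no overlap and vehicle replicate 2 the lowest. Its log2 fold change of 0.08 was not called (edgeR adjusted p = 0.152), but it was called with limma-voom, without the count filter, with the replicate number as a block (adjusted p = 2.30e-06), and without vehicle replicate 3 (0.10). 62.2% of its 50-base stretches are shared with transcripts of other genes. mt-Nd6, the member on the other strand, was 15.5, 17.8 and 16.2 CPM with vehicle and 15.6, 17.8 and 17.2 CPM with palmitate and was not called; the sign of its difference was not stable. The 4 rises among mitochondrially encoded genes thus became 2 with DESeq2, and 2 without vehicle replicate 1, palmitate replicate 1 or palmitate replicate 3. Per kilobase of gene, the mean level with vehicle was highest for mt-Co1 (5023 CPM per kb), then mt-Cytb (4330), mt-Nd1 (3198), mt-Nd2 (2000), mt-Nd5 (1725) and mt-Nd4 (1263), with mt-Nd6 far below at 31.8. The order was the same with palmitate. These are levels in poly(A) libraries, and how completely each message was captured was not tested. The levels of mt-Co1 and mt-Nd4 are also less certain for the shared stretches given above.

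**Figure D4:**
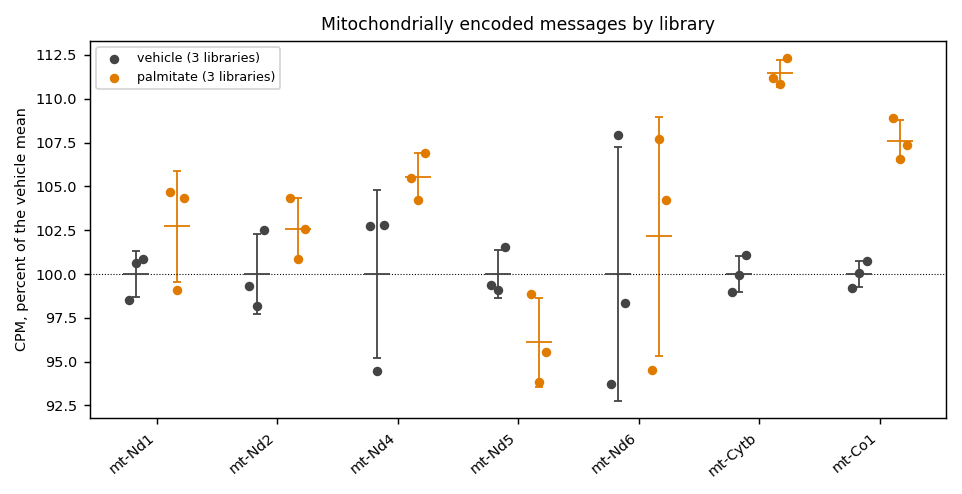
Level of the 7 mitochondrially encoded genes in each library, as percent of the gene's vehicle mean (vertical axis); points are libraries, and bars are the mean ± SD of 3. The palmitate libraries of mt-Cytb and mt-Co1 lie above the vehicle libraries, those of mt-Nd5 lie below, and mt-Nd1, mt-Nd2 and mt-Nd6 overlap.

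As a share of all counts, the 7 mitochondrially encoded genes took 2.29% ± 0.02 (SD, n = 3) with vehicle and 2.39% ± 0.03 (SD, n = 3) with palmitate, ranges that did not overlap. The other subunit genes of mitochondrial DNA named above are not in this share. The 95 nuclear genes took 0.843% with vehicle and 0.888% with palmitate, also without overlap. The ratio of the mitochondrial to the nuclear share was 2.69 to 2.75 with vehicle and 2.65 to 2.70 with palmitate, and here the groups overlapped. The palmitate to vehicle ratio of the share was 1.10 for mt-Cytb and likewise 1.10 for the 9 nuclear subunits of complex III. In complex I it was 1.00 for the mitochondrial genes, whose groups overlapped, and 1.05 for the nuclear ones, whose groups did not. For complex IV it was 1.06 for mt-Co1 and 1.02 for the nuclear genes. The nuclear shares of complexes I and IV cover all nuclear genes of the set placed there. Besides subunits these are the Ndufaf factors, Cox7a2l, tissue isoforms and copy genes. The mitochondrial ribosomal RNAs, which polyadenylated libraries retain in part, took 0.0445% to 0.0480% of counts with vehicle and 0.0383% to 0.0431% with palmitate, without overlap; their part in these results was not tested.

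Assembly factors build the complexes without staying in them. Of the 8 Ndufaf genes 4 rose and 0 fell, with a median log2 fold change of 0.16. Ndufaf5, which modifies an arginine of Ndufs7, had the largest log2 fold change of all 96 tested genes of the set: 8.90, 9.92 and 10.9 CPM with vehicle and 15.2, 14.3 and 14.5 CPM with palmitate, or 0.56 ± 0.07 (SE, n = 3 per group; edgeR adjusted p = 5.70e-10). Ndufaf1, which takes part in building the membrane arm, was 16.9, 16.1 and 16.5 CPM with vehicle and 19.96, 21.03 and 19.64 CPM with palmitate, a log2 fold change of 0.30. Ndufaf4 (0.18) and Ndufaf7 (0.15), a protein methyltransferase, were also called higher. The call of Ndufaf7 was lost with DESeq2 and without vehicle replicate 1 (0.13), vehicle replicate 3 (0.12) or palmitate replicate 1 (0.12).

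Of the related genes outside these names, 95 were tested in 8 lists, of which 34 (35.8%) rose and 7 (7.37%) fell, with a median log2 fold change of 0.08. Over all tested genes the shares were 27.4% and 25.4%, and 37.8% of genes of at least 30 CPM were called higher. With DESeq2 the 34 rises and 7 falls became 18 and 3, while 3090 of all 14987 genes were called higher and 2809 lower. The share of these lists that rose was then no higher than that of all genes. Among 23 complex IV assembly factors 10 rose and 1 fell, and the median was 0.12. Cox10, which makes the heme O precursor of heme A, went from 25.6 to 34.5 CPM in the mean, a log2 fold change of 0.43 (edgeR adjusted p = 8.06e-13). Pet100 (0.34) and Cmc2 (0.35), both needed to assemble the enzyme, were called higher as well. For complex V, 5 of 6 assembly factors rose, among them Tmem242 (0.14) and the F1 chaperones Atpaf1 (0.28) and Atpaf2 (0.12). The call of Atpaf1 was lost with DESeq2 and without vehicle replicate 2 (0.22), and that of Atpaf2 with DESeq2 and without vehicle replicate 1 (0.10), vehicle replicate 3 (0.10), palmitate replicate 1 (0.11) or palmitate replicate 3 (0.09).

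For complex III, 3 of 6 assembly factors rose, with Uqcc1 at a log2 fold change of 0.26 and Uqcc2 at 0.14; both act on cytochrome b. The 10 complex I assembly factors outside the Ndufaf names had 1 rise (10%, under the share of all tested genes), Ecsit (0.29), and 2 falls, Acad9 (-0.20) and Tmem186 (-0.16), all 3 of which work on the membrane arm intermediate. The call of Tmem186 was lost with DESeq2 and without vehicle replicate 2 (-0.14) or palmitate replicate 2 (-0.12). Among 4 complex II factors only Sdhaf2, which helps attach the flavin to Sdha, was called, lower at -0.10, and this was lost with DESeq2 and without palmitate replicate 3 (-0.09). Of 12 coenzyme Q genes 3 rose, among them Coq9 (0.15), and 2 fell, Coq8b (-0.27) and Coq10a (-0.26); its shares, 25% and 16.7%, were no higher than the 27.4% and 25.4% of all tested genes. These lists thus contained falls as well as rises.

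Among 24 genes of mitochondrial transcription and RNA stability 8 rose and 1 fell, with a median log2 fold change of 0.12. The share that rose, 33.3%, was near the 27.4% of all tested genes. They included Tbrg4 (0.27), an RNA-binding protein of the FASTK family, Pnpt1 (0.18), the mitochondrial polynucleotide phosphorylase, and Slirp (0.26), the partner of Lrpprc in keeping mitochondrial messages stable. Of 10 nuclear regulators of respiration genes 4 rose and 0 fell, with a median log2 fold change of 0.02. The 40% that rose stands against 27.4% of all tested genes and 37.8% of genes of at least 30 CPM. Ppargc1a, the coactivator PGC-1 alpha, went from 22.7 to 33.1 CPM in the mean, a log2 fold change of 0.55 ± 0.05 (SE, n = 3 per group; edgeR adjusted p = 2.34e-16). Gabpb1 (0.17) and Yy1 (0.10) were called higher. Nrf1 (0.02), Gabpa (0.00) and Esrra (-0.01), the factors whose motifs were searched for below with that of YY1, were not called.

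RefSeq promoter windows (GRCm38.p6, 250 bases before to 50 after the start) were found for 76 of the 102 genes, with 81 windows in all. The NRF1 motif occurred in 24.7% of these windows, in 9.58% of the 13188 windows of tested genes and in 4.60% of all 32851 windows. The ETS motif occurred in 23.5%, 17.3% and 8.86% of the same sets, the YY1 core AANATGGCG in 13.6%, 4.77% and 2.38%, and the ERR motif in 9.88%, 3.16% and 4.72%. Among windows of genes that rose 30.2% of 43 held the NRF1 motif, against 18.8% of 32 for genes not called and 20% of 5 for genes that fell. The split by call was given no test, and a match is only a run of letters in the window.

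Gene families with processed copies can lose or gain reads in counting. Of 97 genes of the set with an annotated protein-coding transcript, 44 shared no 50-base stretch with another gene's transcripts and 17 shared 25% or more. The latter include Ndufa13 (28.5%), Cycs (28.5%) and Cox5b (25.9%) besides those given above. Among genes not called they include Uqcrb (43.4%), Cox5a (32.0%) and Cox7c (27.9%). The levels of all these genes are less certain. Copies between genes were not searched. In the authors' deposited table, 31 of the 78 nuclear subunits were higher and 3 lower at a q-value under 0.05. Of its 23399 genes 3102 (13.3%) were higher and 2561 (10.9%) lower. Those 23399 include genes that the filter on low counts removed here, whereas all 78 subunits passed it. These shares are therefore not comparable with those over the 14987 tested genes. For 64 of the 78 the authors' deposited table and edgeR gave the same call, and for the 7 mitochondrially encoded genes the authors' deposited table gave 2 higher and 1 lower.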

How the data were processed

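The authors deposited raw counts per gene for 6 libraries, prepared with a stranded poly(A) kit per the labels' protocols. Their tools, per the submitters' processing notes, were FastQC 0.11.8, STAR 2.6.1, HTSeq, and for testing DESeq2 1.34.0, on mouse build mm39. Strand use in counting: not given in the sources used here. From the authors' deposited table of DESeq2 results, q-values and the sign of log2 fold changes were read; its p-values and its score column were not used.

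Groups came from the sample labels. The whole table was tested with edgeR 4.0.16 in R 4.3.3 (two-sided quasi-likelihood test, robust estimation, no covariate) after TMM normalization and filterByExpr (minimum count 10), with Benjamini-Hochberg adjustment over 14987 genes. The script was tested on simulated data. SE is the log2 fold change over the root of the quasi-likelihood F. Totals of 18.9 to 22.9 M counts per library leave the larger counting error to genes of low CPM. Replicates of a group differed a little beyond counting noise (chi-square per degree of freedom 1.20 to 1.38), so none was taken for a copy. The common coefficient of variation beyond counting noise, as edgeR estimates it, was only 1.28%. Neither value shows whether the libraries are separate cultures. The alternatives tried were a replicate block, median-of-ratios size factors, no filter, library sizes without mitochondrial genes, limma-voom (limma 3.58.1), DESeq2 1.42.0 and each library left out. The comparison with genes of at least 30 CPM was added after the data were seen.

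Members, lists and tests were chosen with earlier results of these data known. Named genes are all mitochondrially encoded genes, Cyc1, Cycs and Sdha to Sdhd; up to 4 called subunits per complex by smallest p and up to 4 of at least 5 CPM by largest change; every called fall; isoform pairs; complex I core subunits (1 is not reported here, though it enters the counts); up to 3 called genes per related list by smallest p; and called Ndufaf factors. Others were named after their values were seen. Shared 50-base stretches and lengths came from Gencode release 21 transcripts, an earlier build than the counts (release 30), so no gene positions are given. Stretches were those of each gene's longest protein-coding transcript, searched for on either strand. Protein comparisons were not analysed here, nor were some subunit genes. Plots were made in Python 3.11.15 with matplotlib 3.10.9.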

Additional observations from a re-analysis of the deposited data

How the results depend on the processing

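The nuclear rises were fewest with DESeq2, which called 29 of 78 nuclear subunits higher, 10 in complex I, 4 in complex III and 8 in complex V. It called 2 mitochondrially encoded genes higher and, in the related lists, 18 genes higher and 3 lower. Over all 14987 genes DESeq2 called 3090 higher and 2809 lower, where edgeR called 4110 and 3805. Leaving out each library in turn gave 34 to 42 nuclear subunits higher and 3 to 5 lower, 11 to 18 higher in complex I, 3 in complex II each time, 4 to 6 in complex III, 4 to 5 in complex IV, 10 to 15 in complex V, 2 to 5 mitochondrially encoded genes higher and 1 lower, 3 to 4 Ndufaf factors higher, and 25 to 33 related genes higher and 5 to 7 lower. Over all genes, leaving out each library gave 3738 to 3908 called higher and 3475 to 3572 called lower. Of the 44 nuclear rises 27 were called under all 12 alternatives, and of the 4 nuclear falls 3 were. Of the 4 mitochondrially encoded rises 2 were. Of 69 named genes 3 changed sign, Atp5g2, Cox8a and mt-Nd6, and 0 of these 3 were called with all libraries. No pairing by replicate number was detected: deviations of same-numbered libraries correlated at -0.00696, 0.00679 and 0.0133. Such deviations hold much counting noise, so a weak shared batch could be missed. With the replicate number as a block 44 nuclear subunits were called higher and 5 lower, and over all genes 4112 higher and 3821 lower. The log2 ratio of the mitochondrial share of counts, palmitate over vehicle, was 0.061 (0.054 to 0.072 with a library left out) and became -0.014 when taken relative to nuclear genes of the chain, since both shares are larger with palmitate. On the log2 scale the median of all genes was 0.0007 with TMM and -0.0027 with median-of-ratios size factors. With library sizes without mitochondrial genes it was 0.0007. For nuclear subunits the medians were 0.083, 0.080 and 0.083 in the same order. Depth limits genes of few counts most, such as Ndufb4 and Cox7a1, where differences as small as those of most subunits were not detectable.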
